A study of Rattus norvegicus with 48 samples.

Results

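The 4 mature microRNAs (miRNAs) of the miR-143 and miR-145 cluster, rno-miR-143-3p, rno-miR-143-5p, rno-miR-145-5p and rno-miR-145-3p, were followed through serum and ulna bone of lean and diabetic rats. They were taken by name from each library's count table, and they are 4 of 763 listed mature miRNAs, of which 629 had at least 1 read. Small RNA was sequenced from 48 rat samples, 32 sera and 16 ulna bones. Male Zucker Diabetic Fatty (ZDF, fa/fa) rats, which carry a leptin receptor mutation and become obese and diabetic, were set beside lean Zucker (+/+) wild type (WT) rats. All rats ate a high-fat, high-carbohydrate chow and carried a 3 mm defect made in the femur, so neither feature separates the groups. Treatment ran for 12 weeks from 11 weeks of age.

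Serum came from placebo-treated WT (n = 5) and ZDF rats (n = 5), from WT (n = 5) and ZDF rats (n = 5) given parathyroid hormone (PTH) at 75 µg/kg on 5 days a week, and from WT (n = 4) and ZDF rats (n = 4) given an anti-sclerostin antibody at 25 mg/kg injected 2 times a week. A further group of ZDF rats received insulin, raised from 0.5 to 13 IU (n = 4). Bone came from WT and ZDF rats under placebo or PTH, 4 of each. PTH and anti-sclerostin are bone anabolic treatments, and insulin is a metabolic one. The study reports that glucose stayed raised in the ZDF rats under every treatment, insulin included. The rat is a single strain model with 1 mutated receptor, and serum mixes RNA released from many tissues.

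miR-143 and miR-145 are made from a shared primary transcript and are among the most abundant miRNAs of smooth muscle and other mesenchymal cells. Serum response factor and its partner myocardin switch the locus on, and the miRNAs favour the contractile state of vascular smooth muscle by repressing factors such as Klf4, Klf5 and Elk1. Each hairpin is cut into a 5p and a 3p arm, one of which is usually loaded into Argonaute and kept while the other is degraded. In a bulk sample, fewer cells of a type and less RNA per cell cannot be told apart.

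The mature sequences are shown because the arms differ in what they can be mistaken for and in the targets they can pair with. Capitals mark the seed, bases 2 to 8, through which a miRNA pairs with its targets. Sequences and positions are those of RefSeq on GRCr8, read 5′ to 3′ on the minus strand of chromosome 18, and 4 of 4 members were matched.
rno-miR-143-3p: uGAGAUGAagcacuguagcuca
rno-miR-143-5p: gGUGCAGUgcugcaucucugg
rno-miR-145-5p: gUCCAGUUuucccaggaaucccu
rno-miR-145-3p: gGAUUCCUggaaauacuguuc
They lie at chr18:57371373-57371394 (22 bases), chr18:57371408-57371428 (21 bases), chr18:57370033-57370055 (23 bases) and chr18:57369997-57370017 (21 bases), in the order given. The 4 seeds differ from each other, and 0 of 692 other rat mature miRNAs in the RefSeq table carries any of them. The nearest other mature sequences lie 6 to 9 edits away, more than the mismatches the mapping allowed.

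The hairpins show where both arms sit. Capitals mark the mature arms, the 5p arm first.
Mir143: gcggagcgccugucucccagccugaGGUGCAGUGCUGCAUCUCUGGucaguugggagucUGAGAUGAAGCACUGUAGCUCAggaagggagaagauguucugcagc
Mir145: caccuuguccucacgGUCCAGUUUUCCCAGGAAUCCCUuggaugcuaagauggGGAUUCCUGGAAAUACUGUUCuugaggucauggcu
Mir143 occupies chr18:57371349-57371453 (105 bases) and Mir145 chr18:57369983-57370070 (88 bases), with 1278 bases between them. Both fall within the span of Carmn, a long noncoding RNA gene known from smooth muscle and heart. The gene table gives spans and not exons, so an exonic or intronic position is not stated.

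The depth set what could be seen of each arm. Reads assigned to miRNAs ran from 28015 to 205664 per serum library and from 41627 to 1398702 per bone library, and 6 sera and 2 bones, both of PTH-treated WT rats, held fewer than 60000. Levels are given as CPM, the miRNA reads scaled to a common library size by the trimmed mean of M-values (TMM CPM), within each tissue. Differences are log2 fold changes (log2FC ± SE) from edgeR's quasi-likelihood fit over all miRNAs passing a read filter in the libraries compared, and a miRNA was called at a false discovery rate (FDR) under 0.2. Exact p-values are two-sided permutation tests of log2(TMM CPM + 1) between libraries. Reads from different miRNAs are not compared as molecules, since ligation and amplification differ by sequence, and ratios between members are given to compare libraries.

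rno-miR-143-3p, the arm of miR-143 that represses Elk1, was the dominant member by reads in both materials. In bone it took 2.56 to 27.5% of all miRNA reads (median 8.16%), ranked first among all miRNAs in 4 of 16 libraries, and stood among the top 10 in 16 of 16. In serum it took 0.211 to 8.28% (median 0.984%), with a rank from 1 to 53. Its highest serum library held 38.0 times the CPM of its lowest, against 10.9 times in bone. The lowest serum library (1948 TMM CPM) came from the anti-sclerostin ZDF group, which has no bone. In the groups with both materials, serum ran from 6796 to 74034 TMM CPM and bone from 23855 to 259624, spans of similar fold.

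rno-miR-145-5p, the arm that represses Klf4 and Klf5, took a similar share of reads in both materials, 0.0869 to 1.29% in serum (median 0.357%) and 0.260 to 1.43% in bone (median 0.502%). Its partner rno-miR-145-3p had 1 to 67 reads per serum library (median 9), and 12 to 930 per bone library (median 178.5). rno-miR-143-5p was counted 77 times in all sera together and was at 0 reads in 9 of 32, whereas each bone library held 12 to 753 reads. In serum, rno-miR-143-5p was thus at the edge of detection, and rno-miR-145-3p rests on few reads.

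Bone and serum were compared within each of the 4 groups that had both. The submitters' methods take bones from rats that also gave serum, except 2 of the 4 ZDF PTH bones, but the labels do not link them, and the libraries were treated as independent. In placebo-treated WT rats all 4 members were higher in bone, rno-miR-143-3p by a log2FC of 2.07 ± 0.53 (FDR 0.00266), rno-miR-143-5p by 3.88 ± 0.52, rno-miR-145-5p by 1.28 ± 0.38 (FDR 0.00636) and rno-miR-145-3p by 1.54 ± 0.53 (FDR 0.0172). Most miRNAs differed between the materials, 80.6% of those tested being called, 41.9% higher and 38.7% lower in bone, so a call alone says little about the members.

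In the other groups the 2 arms of miR-145 were called differently. rno-miR-143-3p stayed higher in bone than in serum in placebo-treated ZDF rats (1.49 ± 0.51, FDR 0.0148), PTH-treated WT rats (3.47 ± 0.52) and PTH-treated ZDF rats (1.84 ± 0.51, FDR 0.00373), where 86.1%, 79.9% and 81.6% of miRNAs were called (46%, 37.5% and 46.3% higher). rno-miR-145-3p was also called higher in each, by 1.43 ± 0.68 (FDR 0.0693), 1.93 ± 0.58 (FDR 0.00378) and 1.85 ± 0.54 (FDR 0.00523). rno-miR-145-5p was not called in any of these 3 groups, at −0.21 (FDR 0.668), 0.17 (FDR 0.806) and −0.39 (FDR 0.451). The call of rno-miR-145-3p in placebo-treated ZDF rats was lost when serum library 2, 4 or 5 was left out (FDR 0.230, 0.216 and 0.243).

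**Figure D1:**
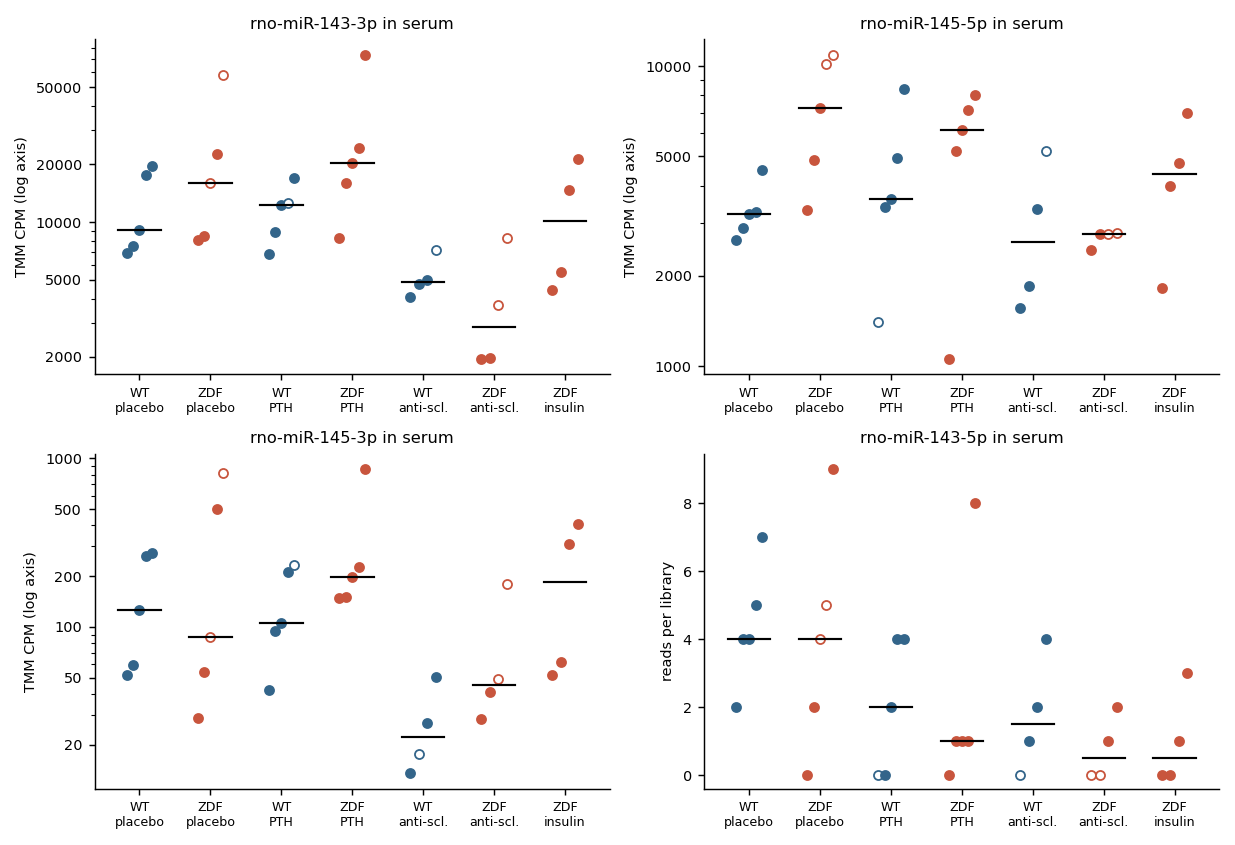
Serum levels of the 4 members in 7 groups, 1 point per rat, blue for WT and red for ZDF, as TMM CPM on log axes for rno-miR-143-3p, rno-miR-145-5p and rno-miR-145-3p and as reads for rno-miR-143-5p; open circles are libraries under 60000 miRNA reads and bars are group medians. The ZDF anti-sclerostin group has the lowest median of rno-miR-143-3p (2846) and the ZDF PTH group the highest (20268).

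By group median, serum rno-miR-143-3p ran from ZDF PTH (20268 TMM CPM) through ZDF placebo (15909.6), WT PTH (12287), ZDF insulin (10112) and WT placebo (9131) to WT anti-sclerostin (4884) and ZDF anti-sclerostin (2846). Of neighbours in that order, WT placebo and WT anti-sclerostin had the lowest exact p (0.0317, unadjusted), with overlapping ranges. The exact p of all other neighbouring pairs was 0.257 or more. Serum rno-miR-145-5p ran from ZDF placebo (7275) through ZDF PTH (6137), ZDF insulin (4379), WT PTH (3607), WT placebo (3209.8) and ZDF anti-sclerostin (2757) to WT anti-sclerostin (2592), and no neighbouring pair had an exact p below 0.0952. Both orders place the placebo and PTH ZDF groups at the top and the anti-sclerostin groups at the bottom.

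In placebo-treated rats, serum rno-miR-145-5p was higher in ZDF than in WT. The ZDF libraries 1 to 5 held 10156, 4865, 7275, 3325 and 10920.4 TMM CPM, and the WT libraries 4513, 3209.8, 3268, 2896 and 2625. All 5 ZDF rats lay above the WT median, although the lowest ZDF rat lay within the WT range. The means were 7308 ± 3279 and 3302 ± 724 (SD, n = 5 each), the log2FC was 1.07 ± 0.34 (FDR 0.11, exact p = 0.0159), and 1 of the 3 members tested was called against 6.1% of all miRNAs (4.27% called higher and 1.83% lower). The call was lost under 3 other settings and without ZDF library 1 (FDR 0.2001) or 5 (FDR 0.254) or WT library 5 (FDR 0.250). Without the libraries under 60000 reads, which are ZDF libraries 1 and 5, the log2FC was 0.59 (FDR 0.775).

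rno-miR-143-3p, from the same transcript, was not called in that comparison. The ZDF sera held 58352, 8441, 22643, 8025 and 15909.6 TMM CPM, and the WT sera 19553, 7542, 17515, 9131 and 6877. ZDF library 1 was far above the rest, and otherwise the groups overlapped through most of their range (log2FC 0.83 ± 0.49, FDR 0.486, exact p = 0.333). The reads of rno-miR-145-3p spanned 2 to 67 in the ZDF sera and 4 to 56 in the WT sera, with a log2FC of 0.83 ± 0.71 (FDR 0.688). rno-miR-143-5p, with 4, 0, 9, 2 and 5 reads in ZDF against 7, 4, 2, 4 and 5 in WT, did not pass the read filter. Scaled to the added spike-in RNA in place of TMM, rno-miR-145-5p was 0.14 (FDR 0.859) and rno-miR-143-3p −0.21, while the calls went from 7 higher and 3 lower to 2 higher and 35 lower and the median of all miRNAs moved from −0.09 to −1.03, so both members stayed above that median.

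Sera with the anti-sclerostin antibody were compared in each genotype with its placebo group. The study describes the ZDF rats as randomized to treatment, but cites a different earlier report for the antibody rats than for the placebo rats. If these were separate cohorts, antibody and cohort cannot be told apart. In ZDF rats rno-miR-143-3p was lower with the antibody. The 4 treated sera held 8287, 1973, 1948 and 3720 TMM CPM (mean 3982 ± 2987, SD), against a placebo mean of 22674 ± 20832 (SD, n = 5) made of the values given above. Library 1, the shallowest of all with 28015 reads, lay within the placebo range, and the other 3 lay below all placebo sera. The log2FC was −2.53 ± 0.65 (FDR 0.15, exact p = 0.0317), and 1 of the 2 members tested was called against 1.27% of 158 miRNAs, which is 2 miRNAs. The other one called was rno-miR-126a-3p, an endothelial miRNA, at −1.26 ± 0.32.

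rno-miR-145-5p did not overlap between the ZDF anti-sclerostin and placebo sera. The treated sera were tightly grouped at 2774, 2748, 2435 and 2765 TMM CPM (mean 2681 ± 164), below the lowest placebo serum at 3325. The log2FC of −1.38 ± 0.40 just missed the threshold (p = 0.00429 by edgeR, FDR 0.226, exact p = 0.0159), and 2.53% of all miRNAs did not overlap between these groups (1.27% in this direction). rno-miR-145-3p was at 5, 7, 3 and 2 reads in the treated sera and did not pass the filter. Its difference in mean log2(TMM CPM + 1) was −1.3 (exact p = 0.302).

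How many members passed in ZDF rats depended on the fit. DESeq2 called 2 members (rno-miR-145-5p at FDR 0.0354 and rno-miR-143-3p at 0.0216) among 11 of 158 miRNAs. The fit to all detected miRNAs followed by independent filtering called 4 among 25 of 290. The study also describes independent filtering, but it reports fewer miRNAs called in this comparison, so this fit did not reproduce its result. With scaling to the spike-in (−1.91, FDR 0.395), with a covariate for hemolysis (−2.08, FDR 0.309) or with library totals (FDR 0.208), rno-miR-143-3p kept its direction and missed the threshold. It also missed it when ZDF placebo library 1 was left out (−1.83, FDR 0.418), and in 5 of the other 8 leave-one-out fits. Summed endothelial markers moved with these results, at 3801 to 7674 TMM CPM in the treated sera against 7972 to 15242 in placebo. The summed mesenchymal and stromal miRNAs, a list described below, did not fall, at 20934 to 30296 in the treated sera against 13327 to 28540 in placebo. The part of either list in the result was not tested.

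In WT rats serum rno-miR-143-3p was lower with the antibody, without a call. The treated sera held 4099, 4772, 4996 and 7115 TMM CPM, and the lowest placebo serum (6877) lay below the highest treated one. The log2FC was −1.29 ± 0.39 (p = 0.00389 by edgeR, FDR 0.245, exact p = 0.0317). rno-miR-145-5p, at 1569, 3336, 1848 and 5234, spread across the placebo range (−0.21 ± 0.40, FDR 0.802).

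rno-miR-145-3p was at 1, 5, 4 and 1 reads in the WT anti-sclerostin sera against 56, 6, 33, 4 and 18 in placebo, and on the TMM CPM scale the groups did not overlap (13.5 to 50.2 against 52.2 to 274). The difference in mean log2(TMM CPM + 1) was −2.32 (exact p = 0.0159), where 2.34% of the miRNAs tested did not overlap (0.585% in this direction), and with 1 to 5 reads per library the size is poorly fixed. edgeR called 0 of 171 miRNAs in this comparison, 18 had an unadjusted p under 0.05, and DESeq2 called 5 miRNAs, of which rno-miR-143-3p was 1 (FDR 0.151).

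The antibody response was not shown to differ between the genotypes. The interaction (ZDF minus WT) was −1.20 ± 0.74 for rno-miR-143-3p, −1.14 ± 0.55 for rno-miR-145-5p and 0.31 for rno-miR-145-3p, each with an FDR of 0.822 or more. Of 189 miRNAs, 0 were called by edgeR or DESeq2, and 4 had an unadjusted p under 0.05. Set directly against each other, ZDF and WT anti-sclerostin sera gave −0.37 for rno-miR-143-3p (FDR 0.931), and the corresponding log2FC of rno-miR-145-5p was −0.11 (FDR 0.996). There edgeR called 0 of 161 miRNAs, 11 had an unadjusted p under 0.05, and DESeq2 called 6, with no member among them. Without the libraries under 60000 reads, which leaves 2 ZDF and 3 WT sera, rno-miR-143-3p was at −1.11 (FDR 0.0377), one of 45 of 171 miRNAs called.

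Insulin-treated ZDF sera held 5498, 21339.9, 4443 and 14726 TMM CPM of rno-miR-143-3p and 1827, 6995, 3986 and 4772 of rno-miR-145-5p. Both overlapped placebo, with log2FC of −1.02 ± 0.57 (FDR 0.272) and −0.81 ± 0.40 (FDR 0.213), and rno-miR-145-3p gave −0.58 ± 0.82 (FDR 0.673). edgeR called 0 of the 3 members tested, of which 0 had an unadjusted p under 0.05, while 26.5% of 151 miRNAs were called in this comparison (15.2% lower). DESeq2 called 0 of the members and 38 of 151 miRNAs, whereas independent filtering called rno-miR-143-3p (FDR 0.0134) and rno-miR-145-5p (FDR 0.0896) and 48 of 317. Without placebo library 1 rno-miR-143-3p was at −0.27, and without the libraries under 60000 reads at −0.16.

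The miRNAs called with insulin included 4 of 4 erythrocyte markers, all higher. The log2 ratio of miR-451 to miR-23a, a measure of red cell RNA in serum, was 3.18 to 3.79 with insulin against −0.49 to 1.41 in placebo. With that ratio as a covariate 0 of 151 miRNAs were called, and the log2FC was −2.39 ± 1.43 for rno-miR-143-3p, −0.14 ± 1.02 for rno-miR-145-5p and −4.36 ± 2.03 for rno-miR-145-3p, none called. The ratio did not overlap between the groups, so red cell RNA and insulin cannot be told apart. Scaled to the spike-in, rno-miR-143-3p was 0.0026 and rno-miR-145-5p 0.22 as the median of all miRNAs moved to 0.72, and 22 miRNAs were called higher and 0 lower, against 17 and 23 with TMM.

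PTH left no called member in serum. In ZDF rats the 5 PTH sera held 74034, 20268, 15980.4, 8232 and 24133 TMM CPM of rno-miR-143-3p (log2FC 0.32), 8012, 5213, 1059, 6137 and 7143 of rno-miR-145-5p (−0.38) and 148 to 860 of rno-miR-145-3p (0.08), with an FDR of 0.993 for each. Library 1 was the highest in all 3. In WT rats the PTH sera held 12287, 16847, 12518, 8853 and 6796 of rno-miR-143-3p (−0.17) and 3607, 8367, 1407, 4949 and 3402 of rno-miR-145-5p (0.30), at an FDR of 0.992. edgeR and DESeq2 each called 0 miRNAs in both genotypes over all libraries, with the read filter and scaling within the libraries. In ZDF rats edgeR called 5 without the filter or with independent filtering. In WT rats it called 1 without the filter, 3 with independent filtering and 1 without the libraries under 60000 reads. With spike-in scaling 88 of 154 were called in ZDF rats, all higher, 1 of them a member, as the median of all moved to 1.42. Under TMM, 4 of 154 in ZDF and 2 of 170 in WT had an unadjusted p under 0.05, none of them members.

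The interaction of PTH with genotype in serum was 0.38, −0.79 and 0.30 for rno-miR-143-3p, rno-miR-145-5p and rno-miR-145-3p, each with an FDR of 0.922 or more, and 0 of 182 miRNAs were called by either tool, with 8 at an unadjusted p under 0.05. Under PTH, ZDF sera exceeded WT sera by 1.27 ± 0.49 for rno-miR-143-3p (FDR 0.896) and by 1.19 ± 0.59 for rno-miR-145-3p, or by 0.62 and 0.48 without ZDF library 1, with 0 of 158 miRNAs called by edgeR or DESeq2 and 5 at an unadjusted p under 0.05.

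**Figure D2:**
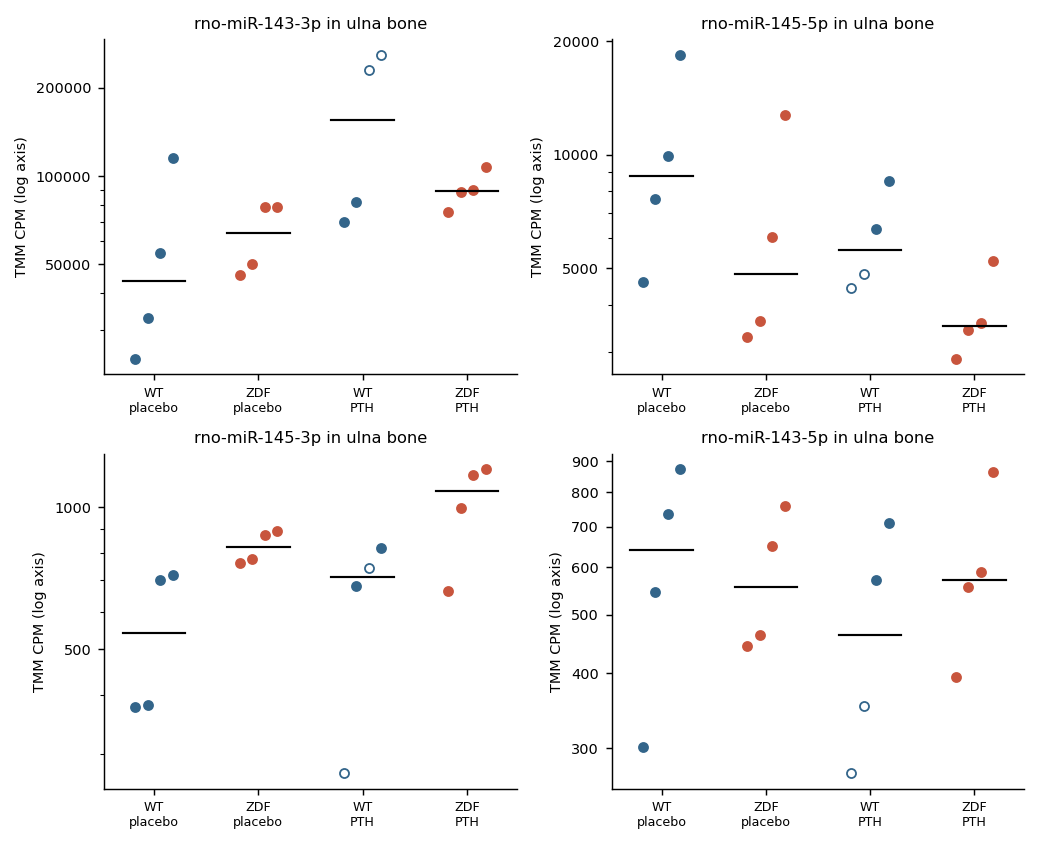
Ulna bone levels of the 4 members in 4 groups, 1 point per bone, as TMM CPM on log axes, blue for WT and red for ZDF; open circles are the libraries under 60000 miRNA reads and bars are group medians. The 2 shallow WT PTH bones hold the highest values of rno-miR-143-3p (230144 and 259624).

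In bone, the group medians of rno-miR-143-3p ran from WT PTH (155794) through ZDF PTH (89075) and ZDF placebo (64221) to WT placebo (43875), and those of rno-miR-145-5p from WT placebo (8787) through WT PTH (5585) and ZDF placebo (4838) to ZDF PTH (3506). No neighbouring pair differed in either order (exact p of 0.0857 or more for rno-miR-143-3p and 0.257 or more for rno-miR-145-5p). The orders of the 2 arms were not alike: WT placebo was lowest for one and highest for the other.

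Of the bone comparisons, PTH against placebo in WT rats gave the largest fitted difference of a member. rno-miR-143-3p was at 230144, 259624, 81443 and 70032 TMM CPM with PTH and at 115073, 32819, 23855 and 54931 with placebo. All 4 PTH bones lay above the placebo median, and 2 of them below the highest placebo bone. The log2FC was 1.67 ± 0.65 (p = 0.0237 by edgeR, FDR 0.219, exact p = 0.114), so that 0 of 4 members were called by edgeR against 5.41% of 222 miRNAs, whereas DESeq2 called this member (1.75, FDR 0.0823) among 41 of 222 (20 higher and 21 lower). The 2 highest bones were the shallowest, at 54497 and 41627 miRNA reads, and without them the log2FC was 0.15 (FDR 0.954).

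The other members did not move with it. In the same comparison rno-miR-145-5p was at 4835, 4427, 8512 and 6334 with PTH and 4581, 7643, 9932 and 18452 with placebo (−0.70 ± 0.42, FDR 0.447). The passenger arm rno-miR-143-5p was at 352, 272, 572 and 712 against 736, 546, 302 and 873 (−0.33), and rno-miR-145-3p gave 0.22. Thus the 2 arms of miR-143 differed in sign in WT bone, neither being called.

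PTH in ZDF bone left rno-miR-143-3p at 88169.9, 89981, 107381 and 75726 against 78779, 50207, 46143 and 78235 with placebo, a log2FC of 0.46 ± 0.27 (exact p = 0.0857). rno-miR-145-5p was at 3578, 2872, 3435 and 5212 against 3611, 12726, 6066 and 3276 (−0.78 ± 0.38). The groups overlapped for both, and the FDR was 0.678 or more for each of the 4 members. edgeR called 0 of 215 miRNAs, 13 had an unadjusted p under 0.05, and DESeq2 called 1, which was no member. The PTH response of rno-miR-143-3p differed between the genotypes by −1.12 ± 0.68 (FDR 0.753), with 0 of 243 miRNAs called by edgeR, 13 at an unadjusted p under 0.05 and 1 called by DESeq2, no member.

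ZDF and WT bones were compared under each treatment. With placebo, rno-miR-145-3p, the passenger arm of miR-145, was at 874, 892, 776 and 763 TMM CPM in ZDF and 701, 378, 381 and 718 in WT. The groups did not overlap (exact p = 0.0286), as for 8.51% of all miRNAs (6.81% in this direction), but the log2FC of 0.59 ± 0.31 was not called (FDR 0.353). rno-miR-145-5p had the opposite sign at −0.69 ± 0.48 (FDR 0.506), and rno-miR-143-3p was at 0.13 (FDR 0.925). edgeR called 0 of the 4 members, against 2.55% of 235 miRNAs (2.13% higher and 0.426% lower). DESeq2 also called 0 members, against 35 of 235 miRNAs (12 higher and 23 lower), and 0 members had an unadjusted p under 0.05 in edgeR, against 41 miRNAs.

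Under PTH the same opposite signs stood in the 2 arms of miR-145. rno-miR-145-5p was lower in ZDF bone, by the values given above (−0.74 ± 0.33, p = 0.0450 by edgeR, FDR 0.317, exact p = 0.0857). rno-miR-145-3p was at 1205, 1173, 995 and 666 in ZDF and 744, 272, 819 and 682 in WT (0.67 ± 0.40, FDR 0.412). edgeR called 0 of the 4 members against 3.27% of all miRNAs (2.8% higher and 0.467% lower), and DESeq2 called rno-miR-145-5p (FDR 0.189) among 24 of 214 (10 higher and 14 lower).

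**Figure D3:**
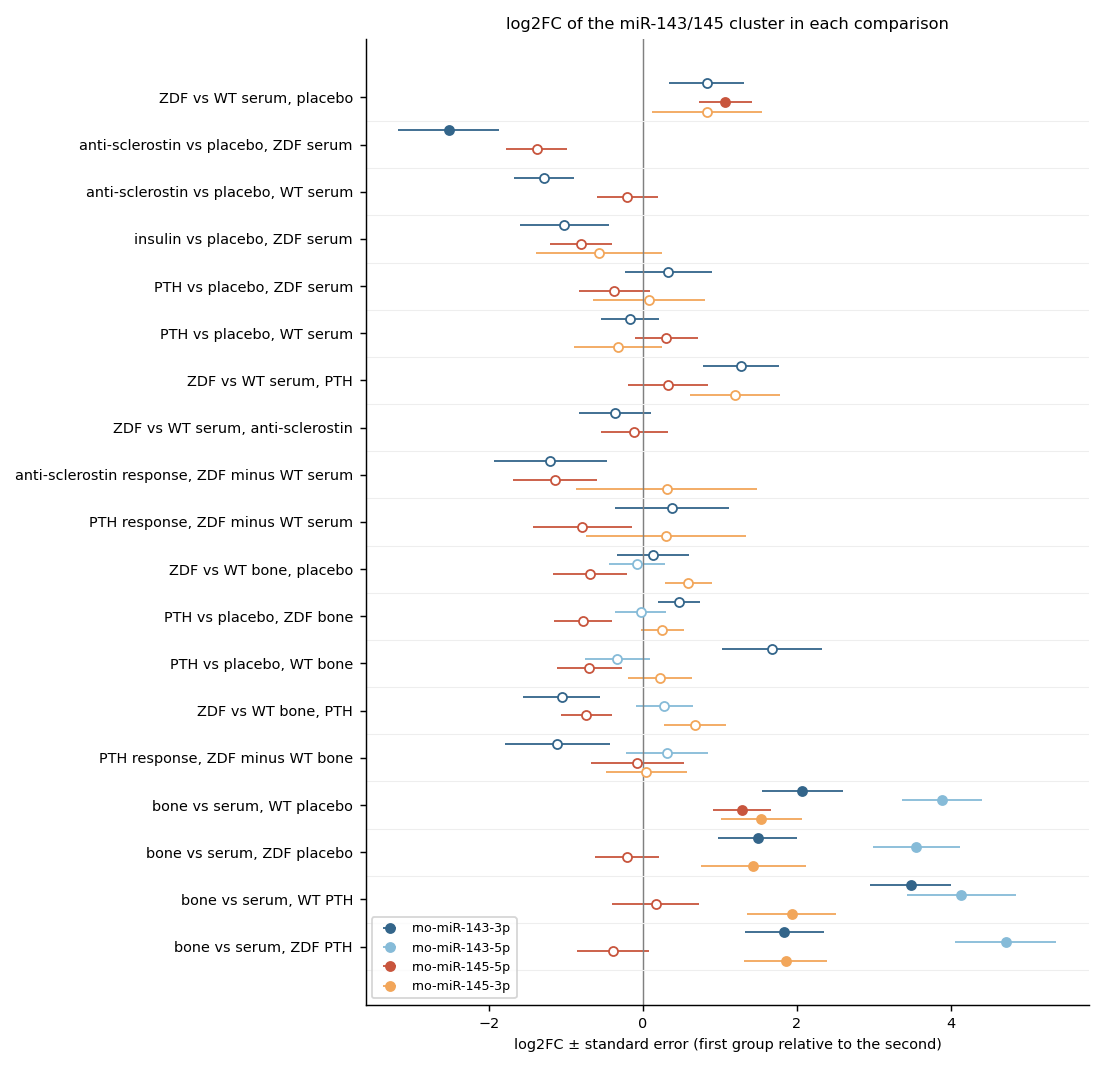
log2FC ± SE of each member that passed the read filter in each comparison of groups, filled where the FDR was under 0.2. The filled points within a tissue are rno-miR-145-5p in ZDF against WT placebo serum (1.07) and rno-miR-143-3p in anti-sclerostin against placebo ZDF serum (−2.53), and most filled points are bone against serum.

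The arms were then compared as log2 ratios within a library, which need no scaling between libraries, after adding 1 read to each arm. Over all libraries of a tissue, whose groups differ (3 of the 7 serum groups have no bone), the median ratio of rno-miR-145-5p to rno-miR-145-3p reads was 37.6 in serum (5.64 to 148) and 7.79 in bone (2.44 to 26.0). The median ratio of rno-miR-143-3p to rno-miR-145-5p was 2.66 in serum (0.719 to 14.9) and 18.2 in bone (2.40 to 58.4). Of 16 comparisons for each of 3 ratios, 3 passed an adjusted p of 0.2 for the first, 3 for the second and 0 for rno-miR-143-3p to rno-miR-143-5p.

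In bone, the ratio of rno-miR-145-5p to rno-miR-145-3p was 6.5, 20.1, 26.0 and 25.6 with WT placebo, 6.36, 15.1, 10.3 and 9.24 with WT PTH, 4.11, 14.3, 7.76 and 4.27 with ZDF placebo, and 2.96, 2.44, 3.44 and 7.81 with ZDF PTH. The 4 ratios of WT placebo reached highest and those of ZDF PTH lowest, with overlap between neighbouring groups. On the log2 scale ZDF minus WT was −1.37 under placebo and −1.39 under PTH, each with an adjusted p of 0.229 from the exact permutation test. Bone minus serum was −2.60 in placebo-treated and −2.24 in PTH-treated ZDF rats (adjusted exact p = 0.169 for each). In WT rats it was −1.58 with PTH (adjusted exact p = 0.229) and −0.48 with placebo (adjusted exact p = 0.490), and the libraries overlapped in all 4 groups.

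In WT serum the same ratio rose with the anti-sclerostin antibody. It was 58.5, 55.5, 55.4 and 148 against 16.2, 46.3, 12.1, 19.8 and 44.6 with placebo, with no overlap, and the mean log2 ratio was 6.17 ± 0.70 (SD, n = 4) against 4.59 ± 0.88 (n = 5), a difference of 1.58 (exact p = 0.0159, adjusted 0.169). The 3p arm of the ratio rests on 1 to 5 reads in each treated WT library. In ZDF serum the ratio was 13, 58.6, 64 and 38 with the antibody and 12.1, 75.7, 14.4, 77.7 and 104.5 with placebo, and the groups overlapped.

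The ratio of rno-miR-143-3p to rno-miR-145-5p was 47.4, 58.4, 9.56 and 11.1 in WT PTH bone and 25.1, 4.29, 2.40 and 2.98 in WT placebo bone. It was 24.6, 31.3, 31.2 and 14.5 in ZDF PTH bone and 21.8, 3.95, 7.60 and 23.8 in ZDF placebo bone. Bone exceeded serum by 2.13 (ZDF placebo), 2.99 (WT PTH, no overlap) and 2.36 (ZDF PTH) on the log2 scale, each at an adjusted exact p of 0.169. In placebo-treated WT rats the difference was 0.64 (adjusted exact p = 0.723), and it was −0.11 without bone library 1. In serum of anti-sclerostin-treated ZDF rats it was 2.96, 0.719, 0.801 and 1.34 against 5.74, 1.73, 3.11, 2.41 and 1.46 with placebo, a log2 difference of −1.05 (adjusted exact p = 0.305).

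**Figure D4:**
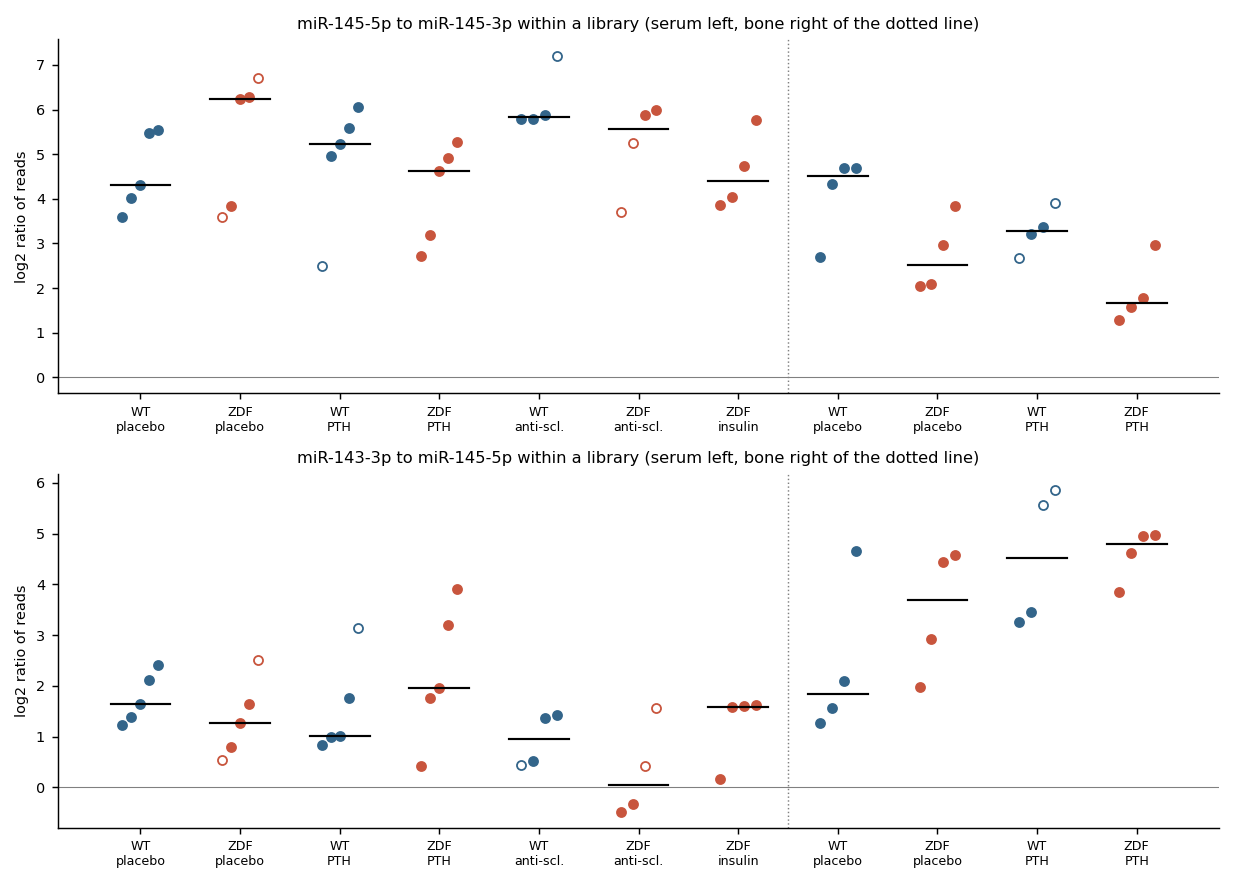
log2 ratios of reads within each library for 11 groups, rno-miR-145-5p to rno-miR-145-3p and rno-miR-143-3p to rno-miR-145-5p, 1 point per library. The ZDF groups and the PTH-treated WT group have the second ratio higher in bone than in serum by 2.13 to 2.99 (log2). In placebo-treated WT rats the difference is −0.48 for the first ratio and 0.64 for the second. Bones and sera overlap in both ratios in each group with both tissues, except in the second ratio of PTH-treated WT rats.

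Across the 32 sera the members varied together to different degrees. On the log2(TMM CPM + 1) scale rno-miR-143-3p and rno-miR-145-3p, which come from different hairpins, gave Pearson's r = 0.85 and Spearman's rho = 0.87 (permutation p = 1e-05, the smallest that the resamples can give, adjusted 0.00012 over 12 relations), 0.79 without the 2 libraries farthest out, and 0.87 with the group means removed. rno-miR-143-3p and rno-miR-145-5p gave r = 0.58 and rho = 0.63 (permutation p = 0.00047 and 0.00023), 0.48 without the 2 farthest, and 0.47 with the group means removed. The 2 arms of miR-145 gave r = 0.50 and rho = 0.50 (adjusted permutation p of 0.014 and 0.0151), 0.63 without the 2 farthest, and 0.42 with the group means removed. Whether these correlations differ from one another was not tested.

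In the 16 bones the relation of the 2 guide arms had the opposite sign. rno-miR-143-3p and rno-miR-145-5p gave r = −0.53 and rho = −0.64 (permutation p = 0.0342 and 0.00871, adjusted 0.103 and 0.0174), −0.50 without the 2 farthest, and −0.53 with the group means removed. rno-miR-143-3p and rno-miR-145-3p gave 0.08. The arms of miR-145 gave −0.29, but 0.13 with the group means removed. All levels share the library's total, and rno-miR-143-3p also fell with depth in bone (r = −0.69, rho = −0.61, adjusted permutation p of 0.0365 and 0.0875 over 48 relations, and −0.57 without the 2 farthest). The part of depth in the first relation was not tested.

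The miRNAs whose levels ran most like each member were found by Pearson's r over libraries of 1 tissue, as a description. In serum, of 197 miRNAs, rno-miR-143-3p was most like rno-miR-145-3p (0.85), rno-miR-497-5p (0.72) and rno-miR-30a-3p (0.67), while rno-miR-145-5p was most like rno-miR-126a-5p (0.63), rno-miR-802-5p (0.60) and rno-miR-322-3p (0.59). In bone, of 242, rno-miR-143-3p was most like rno-miR-30a-5p (0.93), rno-miR-532-5p (0.90) and rno-miR-708-3p (0.89), and rno-miR-145-5p was most like rno-miR-23a-3p (0.93), rno-miR-149-5p (0.90) and rno-miR-378a-5p (0.88). rno-miR-145-5p stood 9th in likeness to rno-miR-143-3p in serum and 168th in bone.

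Other miRNAs known to act in vascular smooth muscle, a list of 10 with miR-21, miR-26a and miR-133a among them, were counted beside the cluster. In ZDF against WT placebo serum edgeR called 0 of the 8 tested (2 at an unadjusted p under 0.05; median log2FC −0.25 against −0.09 over all miRNAs). With anti-sclerostin it called 0 of 8 in ZDF (3 at an unadjusted p under 0.05; median 0.38 against 0.12) and 0 of 8 in WT rats (0 at an unadjusted p under 0.05; median −0.24 against −0.11). With insulin, where 26.5% of all miRNAs were called and 15.2% called lower, 2 of 8 fell, rno-miR-21-5p, which is linked to smooth muscle growth (−0.82, FDR 0.0646), and rno-miR-29a-3p, which represses collagens (−0.87, FDR 0.0646). In bone the striated and smooth muscle regulator rno-miR-133a-3p fell with PTH in WT (−1.83, FDR 0.139, among 12 of 222 miRNAs called). rno-miR-1-3p, also a striated muscle marker, had the opposite sign there (1.53, FDR 0.246). Under PTH rno-miR-133a-3p was higher in ZDF than WT (1.3, FDR 0.0354, among 7 of 214 called). Under placebo rno-miR-1-3p was higher in ZDF than WT (1.23 ± 0.28, FDR 0.199, among 6 of 235 called), while rno-miR-133a-3p was not (−0.26, FDR 0.919). No other list member was called in these bone comparisons. Bone against serum, 3 to 5 of 9 or 10 rose and 1 to 4 fell, near the 37.5 to 46.3% of all miRNAs called higher, with rno-miR-26a-5p 2.97 to 3.92 higher.

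Mesenchymal and stromal miRNAs are a list of 11 that marks the connective tissue in which the cluster is also expressed. In bone against serum, 8 to 10 of the 10 tested per group were higher. Of all miRNAs, 93 of 222 were called higher with WT placebo and 93 of 202 with ZDF placebo. With PTH it was 69 of 184 in WT and 88 of 190 in ZDF rats. The list's median log2FC was 1.97 to 3.95, against −0.07 to 0.42 over all miRNAs, with rno-miR-199a-5p at 5.20, 5.45, 5.70 and 5.66. In ZDF against WT placebo serum, where rno-miR-145-5p rose and 3 of 164 miRNAs were called lower, 2 of 9 fell. They were rno-miR-199a-3p (−1.82, FDR 0.0262) and rno-miR-100-5p (−1.31, FDR 0.161). In ZDF against WT placebo bone rno-miR-214-3p was lower (−2.14, FDR 0.199), where 6 of 235 miRNAs were called, 1 of them lower. With PTH in WT bone, where 12 of 222 miRNAs were called, all lower, rno-miR-214-3p (−1.85) and rno-miR-125b-5p (−1.32) fell. The list did not move as a whole there, with rno-miR-10b-5p at 1.43 and rno-miR-100-5p at 0.79, neither called. Striated muscle markers in bone ranged widely, from 53830 to 424966 summed TMM CPM in WT placebo, 48117 to 69184 in WT PTH, 77280 to 457269 in ZDF placebo and 128794 to 177891 in ZDF PTH, and their part in the members' values was not tested.

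In serum, other cell type markers ran with the members. The summed leukocyte markers gave r = −0.63 and rho = −0.57 with rno-miR-143-3p (adjusted permutation p of 0.00384 and 0.015, and −0.61 without the 2 farthest) and r = −0.60 with rno-miR-145-3p. The summed endothelial markers gave r = 0.62 and rho = 0.65 with rno-miR-145-5p (0.62 without the 2 farthest) and r = 0.50 with rno-miR-143-3p. These 48 relations were chosen after seeing the data. Which cells the serum members came from was not tested.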

How the data were processed

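RNA of 100 µL serum or of ulna bone was extracted with miRNeasy and made into libraries with the RealSeq-Biofluids kit. In the authors' pipeline, cutadapt removed adapters and reads under 17 bases, bowtie mapped to Rnor 6.0 (2 mismatches) and miRDeep2 to miRBase (1 mismatch). The authors deposited raw counts per mature miRNA, an RPM column per library reads, used here only for the library total, and one per miRNA reads, not used. Groups came from the submitters' genotype, treatment and tissue entries, and 3 extraction controls were made by the study. Library reads were 3017240 to 10829922 in serum and 2327292 to 8536011 in bone.

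Counts were filtered with filterByExpr (minimum count 10, total 15), scaled by TMM and fitted in edgeR 4.0.16 (R 4.3.3) by quasi-likelihood over the libraries of each comparison. p-values were adjusted by Benjamini-Hochberg over all miRNAs tested, with an FDR under 0.2 as the call. The study filters after fitting. Levels and the reads of ratios took a pseudocount of 1. Exact permutation tests and correlations (100000 resamples) were run in Python 3.11.15 with scipy 1.17.1. Alternatives were DESeq2 1.42.0, other scalings and filters, pooled groups, a hemolysis covariate, library totals, a depth minimum and each library left out. Scripts were tested on simulated data. No replicates agreed within counting noise (82 pairs, lowest chi-square per degree of freedom 12.7), and p-values measure only the spread between these samples. The members and lists were chosen with earlier results of these data known. Genes named were all 4 members, list members called, and the 3 miRNAs most like each.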

Additional observations from a re-analysis of the deposited data

Results flagged for a closer look

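Of 59 sets of values (a level or ratio in 1 group) tested by Dixon's rule, 6 held a library far from the others. The rule's rate of about 1 in 20 assumes independent, normal values. These sets share libraries, and levels were tested as CPM and not as logs, so the 6 cannot be set against that rate. In serum of PTH-treated ZDF rats, library 1 held 74034 TMM CPM of rno-miR-143-3p, with the next at 24133, and 860 of rno-miR-145-3p, with the next at 226. In serum of anti-sclerostin-treated ZDF rats, one library held 2435 of rno-miR-145-5p below the others at 2748 to 2774, and another held 180 of rno-miR-145-3p (5 reads), with the next at 48.9. In serum of anti-sclerostin-treated WT rats the log2 ratio of rno-miR-145-5p to rno-miR-145-3p reached 7.21 in one library, with the next at 5.87. In serum of insulin-treated ZDF rats the log2 ratio of rno-miR-143-3p to rno-miR-145-5p was 0.16 in one library, with the next at 1.58. No interaction of genotype with treatment passed the threshold for a member in edgeR or DESeq2.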

How the results depend on the processing

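No paired analysis was possible because replicate numbers follow only the order of the samples and the labels do not link bones to sera. The number of members called was least stable with anti-sclerostin in ZDF serum, at 1 as reported, 2 with RLE size factors, DESeq2, a mean of at least 5 reads or libraries of at least 60000 reads (74 of 174 of all miRNAs called), 3 with no filter, 4 with independent filtering, and 0 with library totals, spike-in scaling or the hemolysis covariate. In ZDF against WT placebo serum it was 0 in place of 1 with spike-in scaling, all serum groups in 1 fit or at least 60000 reads. In WT serum with anti-sclerostin it was 0 as reported, 1 with DESeq2, robust fitting or spike-in scaling and 2 with no filter or independent filtering. With insulin it was 2 with library totals, no filter or independent filtering. It was 1 in place of 0 for PTH in ZDF serum (spike-in), ZDF against WT serum under PTH (independent filtering) and under anti-sclerostin (at least 60000 reads), where 88 of 154, 1 of 43 and 45 of 171 of all miRNAs were called, PTH in WT bone (RLE, DESeq2, no filter, independent filtering, mean of 5 reads, all groups), and ZDF against WT bone under PTH (DESeq2, at least 60000 reads). With each library left out in turn it ran from 0 to 1 in ZDF against WT placebo serum, 0 to 2 and 0 to 1 with anti-sclerostin in ZDF and WT, 0 to 2 with insulin, 0 to 2 in ZDF against WT placebo bone, 0 to 2 for PTH in WT bone, 0 to 1 in ZDF against WT PTH bone, 0 to 1 for the bone interaction and 2 to 4 for bone against serum in placebo-treated ZDF rats.

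Spike-in scaling moved the median of all miRNAs by over 0.1 in each serum comparison, to −1.03 and 0.72 in ZDF against WT placebo and insulin, 1.42 and −0.30 for PTH in ZDF and WT, 0.43 for ZDF against WT under anti-sclerostin, and 1.51 and 1.88 for the interactions. Signs of rno-miR-143-3p turned to −0.21 (ZDF against WT placebo), 0.0026 (insulin), 0.20 (ZDF against WT, anti-sclerostin) and 0.41 (its interaction), those of rno-miR-145-5p to 0.22 (insulin), 0.60 and −0.46 (PTH in ZDF and WT), 0.59 (anti-sclerostin), 0.45 and 1.06 (interactions), and those of rno-miR-145-3p to −0.021 (ZDF against WT placebo) and 0.20 (insulin). With at least 60000 reads, rno-miR-145-3p turned to 0.019 (insulin), −0.15 (anti-sclerostin interaction) and −0.0059 (bone interaction), rno-miR-145-5p to 0.044 (PTH in ZDF serum), 0.30 (ZDF against WT, anti-sclerostin) and 0.074 (bone against serum, ZDF placebo), rno-miR-143-3p to 0.32 (ZDF against WT PTH bone) and 0.28 (bone interaction), rno-miR-143-5p to −0.040 (ZDF against WT PTH bone), and log2 ratios to 0.39 (rno-miR-143-3p to -5p, ZDF against WT PTH bone), 0.48 and 0.12 (rno-miR-145-5p to -3p, anti-sclerostin in ZDF and ZDF against WT under it) and 0.0085 (rno-miR-143-3p to rno-miR-145-5p, insulin). The hemolysis covariate turned rno-miR-143-3p to 0.029 and rno-miR-145-3p to 0.13 (PTH in WT serum), and rno-miR-145-3p to −0.23 and −0.012 (interactions). All groups in 1 fit gave −0.046 for rno-miR-145-3p (PTH in ZDF serum), library totals 0.0018 for rno-miR-143-5p (ZDF against WT placebo bone) and −0.12 for rno-miR-145-3p (bone interaction), and a mean of 5 reads 0.067 for rno-miR-145-5p (bone interaction).

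With each library left out in turn, these results changed sign and ran as follows. rno-miR-145-5p ran from −0.58 to 0.13 (anti-sclerostin, WT), −0.052 to 0.54 (PTH, WT serum), −0.40 to 0.25 (ZDF against WT serum, anti-sclerostin), −0.49 to 0.43 (bone interaction), and −0.68 to 0.23 and −0.12 to 0.42 (bone against serum, ZDF placebo and WT PTH). rno-miR-143-3p ran from −0.44 to 0.96 and −0.29 to 0.11 (PTH, ZDF and WT serum), −0.13 to 1.15 (serum PTH interaction) and −0.13 to 0.79 (ZDF against WT placebo bone). rno-miR-145-3p ran from −0.73 to 0.74 and −0.58 to 0.031 (PTH, ZDF and WT serum), −0.64 to 0.81 and −0.28 to 1.09 (anti-sclerostin and PTH interactions in serum) and −0.095 to 0.34 (bone interaction). rno-miR-143-5p ran from −0.33 to 0.092 (ZDF against WT placebo bone) and −0.20 to 0.15 (PTH, ZDF bone). The log2 ratios ran from −1.01 to 0.048 (rno-miR-143-3p to -5p, bone against serum, WT PTH), −0.56 to 0.37 and −0.018 to 0.87 (rno-miR-145-5p to -3p, anti-sclerostin in ZDF and PTH in WT serum), and −0.31 to 0.25, −0.36 to 0.51 and −0.11 to 1.01 (rno-miR-143-3p to rno-miR-145-5p, insulin, ZDF against WT PTH bone, and bone against serum in WT placebo). In all, 533 of 600 alternative values of log2FC kept direction and side of the threshold, and the cause of the other changes was not tested.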

Other observations

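Liver miRNAs moved in the comparison in which rno-miR-145-5p rose. In ZDF against WT placebo serum, where 7 of 164 miRNAs were called higher, 2 of 2 were higher, rno-miR-122-5p by a log2FC of 1.94 and rno-miR-122-3p by 2.09. With insulin, where 23 of 151 miRNAs were called lower, the same 2 liver miRNAs were called lower. With the hemolysis covariate 0 of 151 were called in the insulin comparison. In ZDF serum with anti-sclerostin the second endothelial marker, rno-miR-126a-5p, gave −0.91 (FDR 0.364), beside the called rno-miR-126a-3p. Leukocyte markers in that comparison summed to 11241 to 69368 TMM CPM with treatment and 20330.5 to 39796 with placebo, and erythrocyte markers to 26300 to 206021 and 87066 to 159349, so both overlapped. In WT serum the endothelial markers summed to 4828 to 13626 with anti-sclerostin and 7910 to 20785 with placebo.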
